A study of Mus musculus with 2 samples.

Results

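The interleukin 1 and inflammasome genes followed here are 10 of the 32285 genes in the deposited count matrices: the cytokine genes Il1a, Il1b and Il18, the genes of their antagonists Il1rn, Il1r2 and Il18bp, and the processing genes Nlrp3, Casp1, Casp4 and Gsdmd. They were chosen by name, and each symbol stood on a single row. They were read in CD45+ leukocytes (CD45 is a surface protein of nearly all white blood cells) sorted from tumours of C57BL/6 mice, as a Ythdf2 KO library, from Ythdf2 knockout tumours, and a WT library, from wild-type tumours. YTHDF2 is a protein that binds m6A, a methyl mark on adenosines of mRNA, and promotes decay of marked transcripts. The labels speak of knockout tumours while the design text of the study names cKO mice, and the title speaks of a tumour-intrinsic role. Which cells lost the gene, the Cre driver, the tumour model, the ages and the number of animals pooled are not given in the sources used here. With 1 library per genotype there is no replicate to test a difference against and no p-value is given, and each interval is a 95% interval that covers counting error alone.

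Interleukin 1 beta and interleukin 18 are made as inactive precursors. Innate sensing through NF-kB induces the genes of interleukin 1 beta and of NLRP3. NLRP3 is a sensor that assembles the inflammasome and activates caspase-1, which cuts both precursors and the pore-forming protein gasdermin D. Caspase-11, encoded by Casp4 in the mouse, also cuts gasdermin D. Interleukin 1 alpha and beta share a receptor, which the receptor antagonist encoded by Il1rn occupies without signalling, while the decoy receptor encoded by Il1r2 binds the cytokine without signalling and interleukin 18 binding protein neutralises interleukin 18. In tumours interleukin 1 beta is mostly known as a product of myeloid cells. Transcript counts do not measure processing or release of the proteins.

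The main contrast below is that between Il1b and Il1rn, so the stretches before their start sites are shown, as RefSeq gives them on build GRCm38.p6, up to 250 bases before the start and without bases that GENCODE M21 annotates as exon. Capitals mark matches, on either strand, to the letters TATAAA (the TATA box), TTNNGNAA (C/EBP), TGANTCA (AP-1) or GGGA and CC parted by 4 bases of any kind (NF-kB).
Il1b, chr2:129371140-129371389, minus strand: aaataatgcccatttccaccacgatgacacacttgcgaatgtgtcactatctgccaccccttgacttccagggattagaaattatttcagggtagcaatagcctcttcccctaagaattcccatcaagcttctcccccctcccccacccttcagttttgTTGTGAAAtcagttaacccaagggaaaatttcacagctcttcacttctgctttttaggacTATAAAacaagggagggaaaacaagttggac
Il1rn, chr2:24336610-24336852, plus strand: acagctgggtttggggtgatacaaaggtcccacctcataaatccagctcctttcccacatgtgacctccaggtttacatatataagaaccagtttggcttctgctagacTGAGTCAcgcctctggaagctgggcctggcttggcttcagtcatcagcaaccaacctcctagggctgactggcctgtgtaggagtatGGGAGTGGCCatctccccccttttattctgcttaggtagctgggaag
Il1rn, inner start, chr2:24345041-24345287, plus strand: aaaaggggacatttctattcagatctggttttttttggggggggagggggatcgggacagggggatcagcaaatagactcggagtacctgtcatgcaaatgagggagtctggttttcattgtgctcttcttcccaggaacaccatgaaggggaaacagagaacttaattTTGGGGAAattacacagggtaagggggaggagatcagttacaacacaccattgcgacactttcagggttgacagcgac
The Il1b stretch held TATAAA at bases -31 to -26 from the start and the C/EBP letters at -91 to -84. The upstream Il1rn start held the AP-1 letters at -141 to -135 and the NF-kB letters at -54 to -45, and the inner start held the C/EBP letters at -81 to -74. Of 32851 RefSeq promoters, the 250 upstream bases held TATAAA in 12.4%, the NF-kB letters in 17.6%, the C/EBP letters in 36.8% and the AP-1 letters in 6.75%. A further RefSeq start of Il1rn, whose upstream window overlaps that of the inner start, held 3 matches to the C/EBP letters, at -161 to -154, -65 to -58 and -64 to -57, and is not shown. These matches are letters in a window, not measured binding. A pair of GAAA parted by 2 bases (interferon response), present in 2.98% of promoters, was in none of the 13 windows of the 9 members found in the RefSeq promoter table.

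Cells were assigned by how many listed marker genes had a UMI (a unique molecular identifier, which counts 1 captured transcript), never by the members. A neutrophil needed at least 6 of 9 markers, such as S100a8, Csf3r and Cxcr2. A classical monocyte needed 4 of 7, such as Ly6c2, Ccr2 and Vcan, a patrolling monocyte 3 of 5, such as Ace, Treml4 and Adgre4, and a macrophage 5 of 8, such as C1qa, Trem2 and Mrc1, each with limits on markers of other lineages. The library from Ythdf2 KO tumours gave 855 neutrophils, 1641 classical monocytes, 300 patrolling monocytes, 2112 macrophages, 410 dendritic cells and 2116 lymphocytes among 15844 kept barcodes, against 520, 2140, 69, 3455, 627 and 3113 among 20415 kept barcodes of the WT library. Neutrophils were 5.40% of kept Ythdf2 KO barcodes (5.05 to 5.76) and 2.55% of WT ones (2.34 to 2.77), and patrolling monocytes 1.89% (1.69 to 2.12) and 0.338% (0.263 to 0.428). Barcodes that met no gate were 41.4% and 40.5%, and their median of 7997 and 7928.5 UMIs was above the 5753 and 5674 of all kept barcodes. They are described once, beside Il1b. The libraries shared 101 barcode sequences. Ythdf2 itself was counted in both libraries, at 52.5 CPM (the gene's count per 1000000 UMIs of the class) in Ythdf2 KO macrophages against 49.4 CPM in WT macrophages 29.6 against 27.7 CPM in classical monocytes and 19.6 against 9.70 CPM in neutrophils, so transcript counts do not check the knockout label, and the deleted exons are not given in the sources used here.

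**Figure D1:**
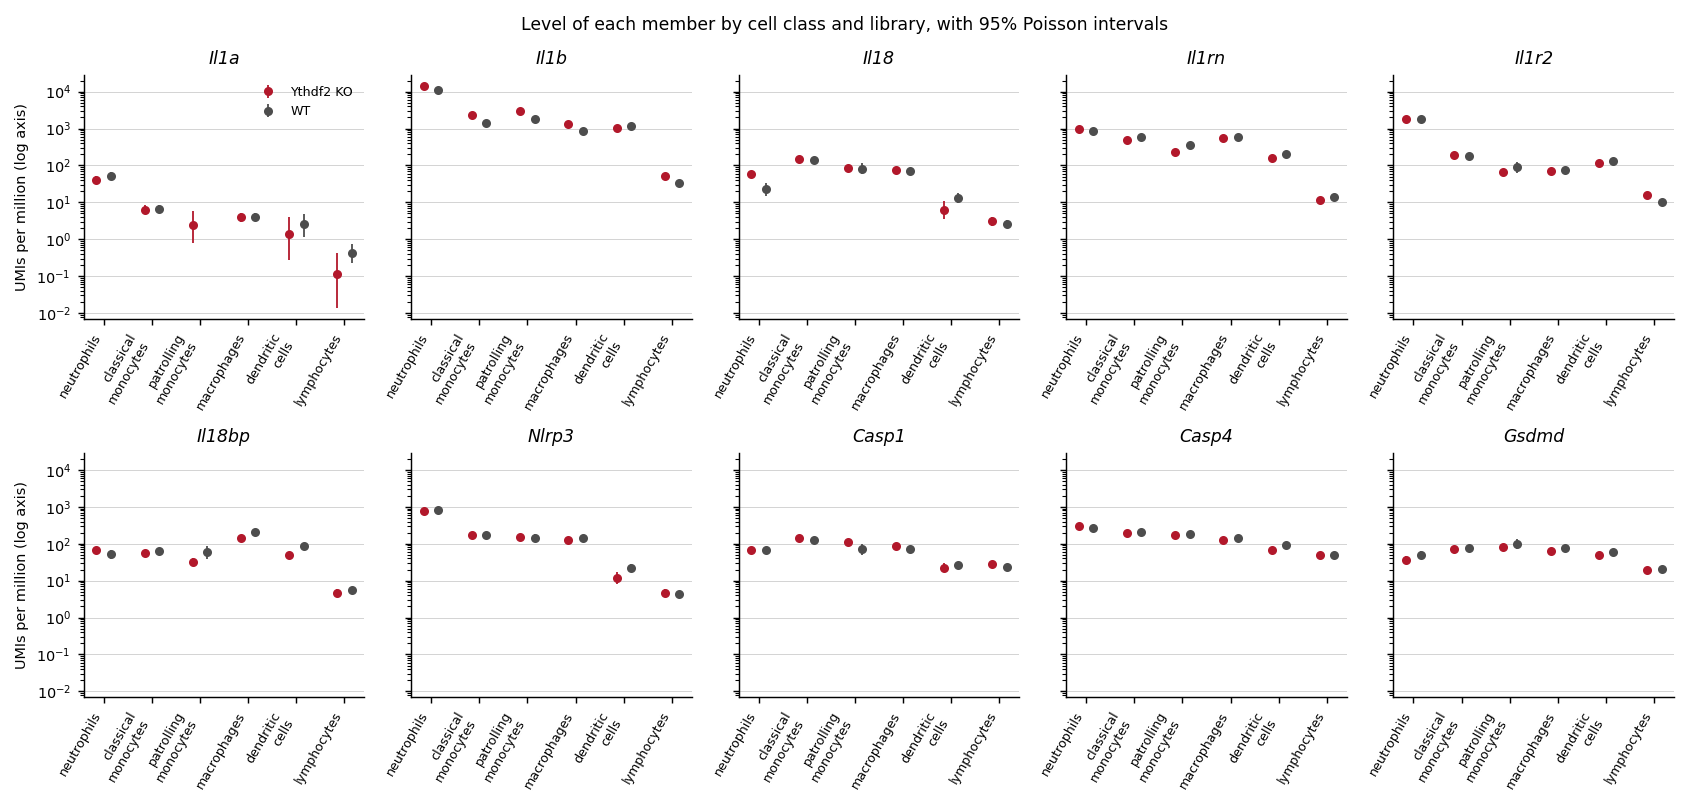
Level of each of the 10 genes in CPM (log axis) in the Ythdf2 KO library (red, left of each pair) and the WT library (grey), with 95% Poisson intervals; a class with no UMI has no point. Il1a, Il1b, Il1rn, Il1r2, Nlrp3 and Casp4 were highest in neutrophils in both libraries. Il1b was higher in Ythdf2 KO neutrophils, monocytes and macrophages than in their WT counterparts.

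Il1b encodes interleukin 1 beta (chr2:129364570-129371139 on mm10, minus strand). Its level was 14570 CPM (14394 to 14748) in Ythdf2 KO neutrophils against 10893 CPM (10710 to 11079) in WT neutrophils. It was 3056 CPM (2980 to 3133) in Ythdf2 KO patrolling monocytes against 1849 CPM (1724 to 1981) in WT ones, and 2382 CPM (2350 to 2416) in Ythdf2 KO classical monocytes against 1428 CPM (1406 to 1451) in WT ones. Macrophages held 1325 CPM (1307 to 1344) in the Ythdf2 KO library and 843.6 CPM (831.1 to 856.3) in the WT library. The Ythdf2 KO level was therefore the higher one in all 4 classes, with intervals that did not overlap.

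The Ythdf2 KO over WT ratio of Il1b was 1.67 (1.63 to 1.70) in classical monocytes, 1.65 (1.54 to 1.78) in patrolling monocytes, 1.57 (1.54 to 1.60) in macrophages and 1.34 (1.31 to 1.37) in neutrophils. A gene was counted as past the fold when it differed by at least 1.5-fold with at least 10 CPM in 1 library and at least 20 UMIs over both. Il1b was past it in both monocyte classes and in macrophages and not in neutrophils. Among all genes that met the same limits, 1.85% were at least 1.5-fold higher in Ythdf2 KO classical monocytes and 0.918% in Ythdf2 KO macrophages. In patrolling monocytes, with 69 WT cells, 11.0% of genes were, and in neutrophils 9.33%. Each ratio sets 1 library against another and carries any difference between their tumours.

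More cells held the transcript as well as more UMIs. With every cell thinned to 1000 UMIs, Il1b was detected in 61.9% of Ythdf2 KO classical monocytes (59.5 to 64.3) against 49.1% of WT ones (47.0 to 51.3), and in 46.8% of Ythdf2 KO macrophages (44.7 to 49.0) against 36.1% of WT ones (34.5 to 37.7); unthinned, the shares were 80.5% against 70.2% and 68.4% against 59.2%. In neutrophils nearly every cell held it in both libraries, 98.7% and 98.0% after thinning. In lymphocytes, which are not known as a source of this transcript, the thinned share was 4.09% in Ythdf2 KO cells and 3.22% in WT cells, at a median depth of 5852.5 and 8017 UMIs, which sets the background. A few cells carried much of the signal: the tenth of macrophages with most Il1b held 45.5% of the class's Il1b UMIs in the Ythdf2 KO library and 52.1% in the WT library.

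**Figure D2:**
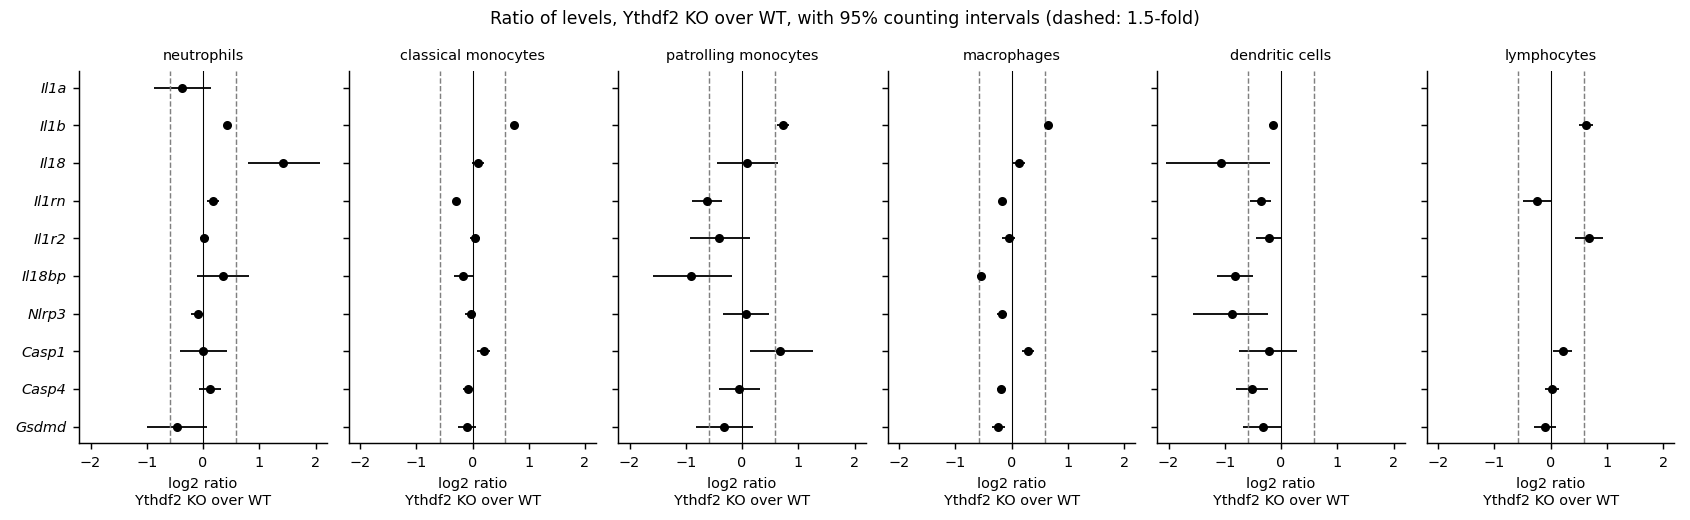
Log2 ratio of the level in the Ythdf2 KO library over that in the WT library for each gene and cell class, with 95% counting intervals and dashed lines at 1.5-fold; genes under the level limits are left blank. Il1b lies beyond the right dashed line in both monocyte classes and in macrophages, and Il1rn lies left of 0 in the same classes.

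Markers of neutrophils, the cells with most Il1b, were set beside these differences. The 9 neutrophil markers summed to 684 CPM in Ythdf2 KO macrophages and 686 CPM in WT macrophages, and to 1270 and 1319 CPM in classical monocytes, with none of the 9 at 0; in patrolling monocytes they summed to 701 and 735 CPM, with Cxcr2 and Retnlg at 0 in Ythdf2 KO cells and Mmp9 at 0 in WT cells. If those UMIs came with Il1b in the proportion seen in neutrophils of the same library, they would carry 72.0 CPM of Il1b into Ythdf2 KO macrophages and 38.8 CPM into WT ones, and the remainder would stand at a ratio of 1.56; in classical monocytes the carried levels are 134 and 74.5 CPM and the ratio of the remainder 1.66. For patrolling monocytes they are 73.9 and 41.5 CPM, with a remainder at 1.65. S100a8 and S100a9 gave 57.0 and 34.9 of the 684 CPM in Ythdf2 KO macrophages, and 40.6 and 39.0 of the 686 in WT ones. In neutrophils they stood at 47238 and 76099 CPM (Ythdf2 KO) and 69857 and 100174 CPM (WT). The marker make-up was thus not that of neutrophils, so these carried levels do not set a limit on Il1b from neutrophil RNA.

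Split by the number of neutrophil markers detected per cell, a division made after the values were seen, the ratio in classical monocytes lay between 1.63 and 1.73 at 0, 1, 2 and 3 markers. In macrophages it was 1.12 (1.03 to 1.21) among cells with none, 1.56 with 1, 1.48 with 2 and 1.74 with 3. Macrophages with no neutrophil marker were 296 in the Ythdf2 KO library and 559 in the WT library, with a median of 4572 and 4091 UMIs against 6253 and 5204 over all macrophages, and they held 677 and 604 CPM of Il1b. The macrophage difference is thus smaller and short of 1.5-fold in the 14.0% and 16.2% of macrophages that showed no neutrophil marker; the cause was not tested. In patrolling monocytes with no neutrophil marker, 38 Ythdf2 KO and 11 WT cells, the ratio was 1.34 (1.10 to 1.64).

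**Figure D3:**
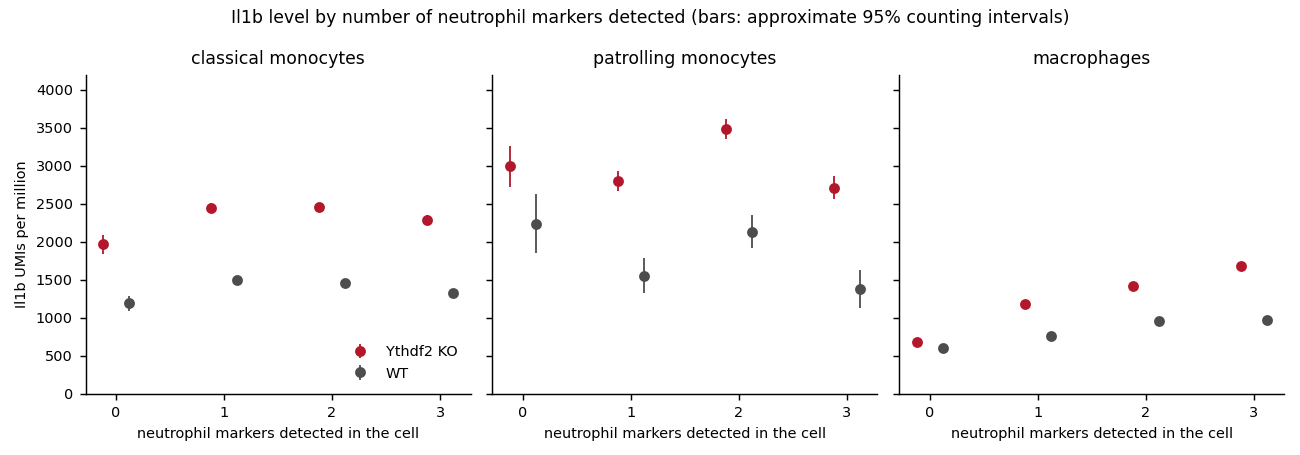
Il1b level in CPM in classical monocytes, patrolling monocytes and macrophages by the number of neutrophil markers detected in the cell, for the Ythdf2 KO library (red, left) and the WT library (grey), with approximate 95% counting intervals. The Ythdf2 KO point is above the WT point at every number, and in macrophages with no marker the 2 levels, 677 and 604, are closest.

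The stricter gates, which asked for 1 more marker and allowed none of another lineage, kept only 54 Ythdf2 KO and 126 WT macrophages, where Il1b stood at 499 and 551 CPM with a ratio of 0.905 (0.746 to 1.10). They kept 21 and 22 classical monocytes at a ratio of 1.21 (0.958 to 1.53), so the 1.5-fold call was lost there too. Asking for 1 more marker alone kept 1020 and 1691 macrophages at a ratio of 1.51 and 719 and 928 classical monocytes at 1.69. Barring any marker of another lineage alone gave 1.23 in macrophages (155 and 279 cells) and 1.81 in classical monocytes (65 and 76 cells). In patrolling monocytes the ratio was short of 1.5-fold under each of these gates: 1.10 with the stricter gates (5 and 1 cells), 1.41 with 1 more marker (90 and 20 cells), 1.27 with no marker of another lineage (24 and 6 cells) and 1.34 without Ace among the markers (172 and 43 cells).

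Macrophage and monocyte states were then separated by single genes. In macrophages with at least 2 UMIs of Arg1, which encodes the arginine-degrading enzyme arginase 1, Il1b was 1088 CPM in the Ythdf2 KO library (364 cells) and 810 CPM in the WT library (1085 cells), a ratio of 1.34 (1.29 to 1.40); with no Arg1 UMI it was 1384 and 880 CPM, a ratio of 1.57 (1.53 to 1.61). Macrophages with at least 2 UMIs of Nos2, the inducible nitric oxide synthase gene, held 1801 and 1023 CPM (84 and 174 cells), a ratio of 1.76. Those with at least 2 UMIs of Cxcl9, an interferon-induced chemokine gene, held 1675 and 928 CPM (308 and 417 cells), a ratio of 1.81. Those with at least 2 UMIs of Mrc1, the mannose receptor gene, held 1031 and 614 CPM, a ratio of 1.68. The Ythdf2 KO level was the higher one in each of these macrophage groups.

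Over all kept barcodes Il1b was 1730 CPM in the Ythdf2 KO library and 899 CPM in the WT library, a ratio of 1.92 (1.91 to 1.94). With Ythdf2 KO levels per class but WT class shares the ratio was 1.71, and with WT levels but Ythdf2 KO class shares it was 1.14. Barcodes that met no gate, and those between gates, each counted as a class here. A difference in make-up inside a class therefore counts as level, and the split does not part levels from make-up. The barcodes that met no gate held 57.7% of the Ythdf2 KO Il1b UMIs and 56.1% of the WT ones, at 1750 and 940 CPM. Barcodes of the monocyte and macrophage lineage that lay between the gates held 2084 and 1295 CPM, a ratio of 1.61 (1.58 to 1.64). Neutrophils held 11.3% of all Il1b UMIs in the Ythdf2 KO library and 8.90% in the WT library.

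**Figure D4:**
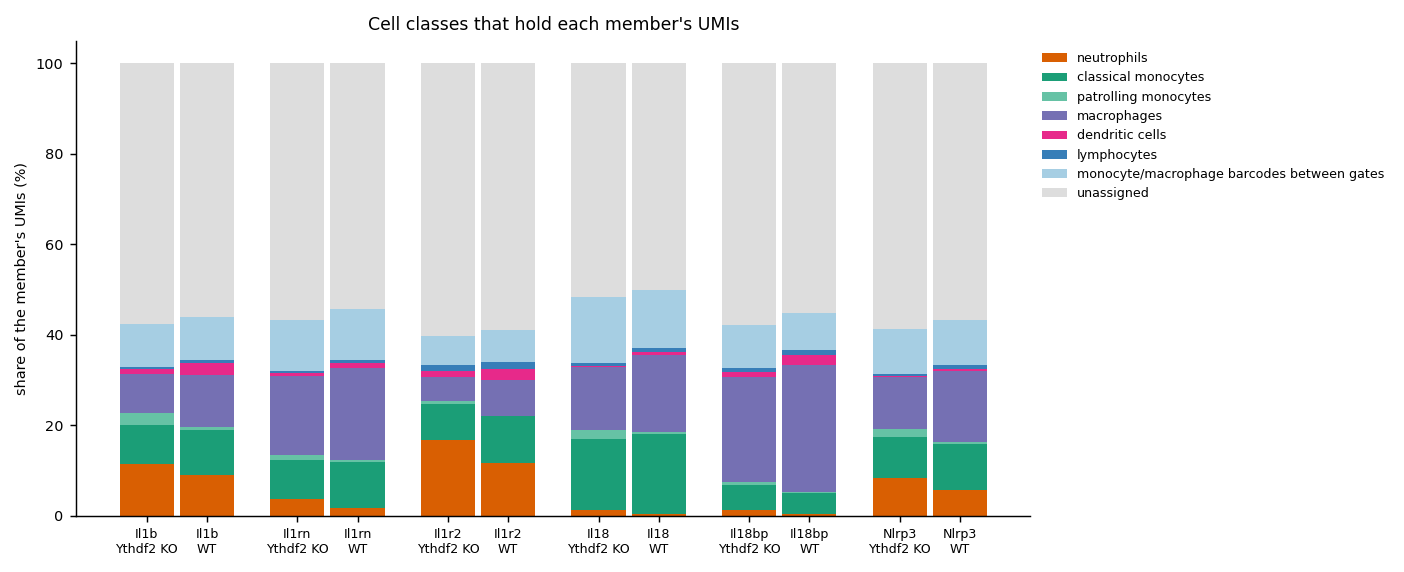
Share of each gene's UMIs, in percent of its total over all kept barcodes, held by each gated class, by monocyte and macrophage barcodes between gates and by barcodes that met no gate (light grey), with the Ythdf2 KO bar left of the WT bar. Ungated barcodes hold the largest share of each gene shown, and neutrophils hold more of Il1r2, 16.7% and 11.8%, than of any other gene shown.

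Over the whole dendritic cell class Il1b was the lower one in the Ythdf2 KO library, while its subsets differed. Il1b was 1036 CPM (994 to 1079) in Ythdf2 KO dendritic cells and 1146 CPM (1111 to 1182) in WT ones, a ratio of 0.904 (0.858 to 0.952). The class differed in make-up, with 128 plasmacytoid dendritic cells, which held 71.0 CPM, in the Ythdf2 KO library and 68, at 95.5 CPM, in the WT library. Mature dendritic cells alone, marked by genes such as Ccr7 and Fscn1, held 1245 CPM (1183 to 1309) in 239 Ythdf2 KO cells and 1219 CPM (1177 to 1262) in 482 WT cells, a ratio of 1.02 (0.960 to 1.09). The conventional cDC2 dendritic cells held 3220 CPM in 20 Ythdf2 KO cells and 1789 CPM in 43 WT cells, and cDC1 dendritic cells 1584 CPM (1423 to 1758) in 23 Ythdf2 KO cells and 1228 CPM (1113 to 1352) in 34 WT cells. In lymphocytes Il1b was 53.1 and 34.3 CPM, a ratio of 1.55, and among lymphocytes with no marker of another lineage 16.4 and 18.4 CPM, an order turned round. The ratio was 1.53 (1.32 to 1.78) in T cells and 1.19 (1.05 to 1.35) in NK cells. This class also differed in make-up, with 278 B cells in the Ythdf2 KO library and 109 in the WT library. B cells held 100 and 10 Il1b UMIs. In lymphocytes 1.25% of all genes were at least 1.5-fold higher.

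Il1a, which encodes interleukin 1 alpha (chr2:129299610-129309972, minus strand), reached 41.4 CPM (32.5 to 52.0) in Ythdf2 KO neutrophils and 53.4 CPM (41.3 to 67.9) in WT neutrophils, intervals that overlapped. In the 5 other main classes it stood at 6.55 CPM or below in both libraries and failed the level limits. It had 5 UMIs in Ythdf2 KO patrolling monocytes and 0 in WT ones, where a count of 3 would be 6.85 CPM.

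Il18, the gene of interleukin 18 (chr9:50554827-50581840, plus strand), was highest in classical monocytes, at 150 CPM (142 to 158) in the Ythdf2 KO library and 140 CPM (133 to 147) in the WT library. Patrolling monocytes held 87.0 and 82.2 CPM and macrophages 75.3 and 68.7 CPM, and intervals of these 2 classes overlapped within each library. The ratios were 1.07 (0.995 to 1.16), 1.06 (0.736 to 1.56) and 1.10 (1.01 to 1.19). Neutrophils differed more: Il18 was 60.4 CPM (49.6 to 72.9; 108 UMIs) in Ythdf2 KO cells and 22.6 CPM (15.0 to 32.7; 28 UMIs) in WT cells, a ratio of 2.67 (1.75 to 4.20). It was detected in 6.05% of thinned Ythdf2 KO neutrophils (4.53 to 7.90) and 2.15% of thinned WT ones (1.08 to 3.82), against 0.713% and 0.258% of lymphocytes. Classical monocyte markers summed to 1985 CPM in Ythdf2 KO neutrophils and 1851 CPM in WT ones, which at the monocytes' own proportion would carry 18.2 and 16.0 CPM of Il18. Il18 was the only member of the 10 past the fold in neutrophils, where 9.33% of all genes were at least 1.5-fold higher and 10.9% at least 1.5-fold lower.

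The neutrophils themselves were not alike in their own markers. The 9 markers summed to 138320 CPM in Ythdf2 KO neutrophils and 192853 CPM in WT neutrophils, S100a8 stood at 47238 and 69857 CPM and Ly6g, a granulocyte surface protein gene, at 103.5 and 265.2 CPM. Macrophage markers summed to 247 and 322 CPM there. Whether the share of neutrophil subtypes moved with Il1b or Il18 was not tested.

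Among the antagonists, Il1rn was lower in Ythdf2 KO monocytes and macrophages with the gates used, by less than 1.5-fold outside patrolling monocytes. Il1rn, at chr2:24336853-24351494 on the plus strand, was 482 CPM (467 to 497) in Ythdf2 KO classical monocytes and 591 CPM (576 to 606) in WT ones, a ratio of 0.815 (0.784 to 0.848). It was 237 CPM (216 to 259) in Ythdf2 KO patrolling monocytes and 365 CPM (311 to 427) in WT ones, a ratio of 0.649 (0.541 to 0.781) that is past 1.5-fold, where 12.0% of genes were at least 1.5-fold lower. Macrophages held 542 CPM (530 to 554) and 609 CPM (598 to 619), a ratio of 0.891 (0.866 to 0.916). In neutrophils the sign was the other way, 945 CPM (901 to 991) in the Ythdf2 KO library and 837 CPM (787 to 889) in the WT library, a ratio of 1.13 (1.05 to 1.22). Mature dendritic cells held 266 and 272 CPM.

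The order of Il1rn depended on how cells were selected. In classical monocytes with no marker of another lineage the ratio was 1.45 (1.07 to 1.97; 65 and 76 cells), in those without a neutrophil marker 1.19 (0.942 to 1.49; 109 and 133 cells) and with the stricter gates 0.792 (0.471 to 1.33). In macrophages it was 1.05 (0.905 to 1.22) with no marker of another lineage, 0.826 (0.743 to 0.918) without a neutrophil marker and 0.780 (0.604 to 0.999) with the stricter gates. In patrolling monocytes it was below 1 under each alternative. In neutrophils it was 0.554 (0.402 to 0.767; 102 and 45 cells) with the stricter gates, 0.605 (0.484 to 0.757; 150 and 59 cells) with no marker of another lineage, 0.995 after thinning and 1.31 with 1 more marker. The direction in classical monocytes, macrophages and neutrophils thus turned round under some selections, and the cause was not tested.

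Macrophage states also differed in Il1rn. Those with at least 2 UMIs of Arg1 held 648 CPM in the Ythdf2 KO library and 594 CPM in the WT library, a ratio of 1.09 (1.03 to 1.15), and those with at least 2 UMIs of Nos2 held 1038 and 898 CPM, a ratio of 1.16 (1.06 to 1.27). With no Arg1 UMI the level was 508 CPM in Ythdf2 KO cells and 600.0 CPM in WT cells, a ratio of 0.847 (0.817 to 0.877). The ratio was 0.969 (0.910 to 1.03) with at least 2 UMIs of Cxcl9 and 0.977 (0.927 to 1.03) with at least 2 of Mrc1. Il1rn was therefore lower in Ythdf2 KO macrophages with no Arg1 UMI and higher in those with Arg1 or Nos2.

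Il1rn UMIs per 100 Il1b UMIs put both genes on 1 scale; because capture differs between genes, the value compares libraries and is not a molar ratio. It was 20.2 (19.6 to 20.9) in Ythdf2 KO classical monocytes and 41.4 (40.2 to 42.6) in WT ones. It was 7.76 (7.05 to 8.51) and 19.8 (16.6 to 23.4) in patrolling monocytes, and 40.9 (39.9 to 42.0) and 72.1 (70.5 to 73.8) in macrophages. Neutrophils stood at 6.49 (6.17 to 6.81) and 7.68 (7.21 to 8.18), and mature dendritic cells at 21.4 (18.9 to 24.1) and 22.3 (20.6 to 24.2). The Ythdf2 KO value was the lower one in all 5, with overlapping intervals in mature dendritic cells. It was also lower in lymphocytes, the background class for Il1b, at 22.3 (19.0 to 26.0) and 40.7 (36.2 to 45.6). The gap was thus not particular to monocytes and macrophages. Plasmacytoid dendritic cells, at 53.2 and 23.5 on 25 and 8 Il1rn UMIs, and cDC1, at 1.70 and 1.68, were not lower. Over all kept barcodes the value was 20.3 and 40.6. With no marker of another lineage the libraries stood closer. Macrophages then held 296 Il1rn and 536 Il1b UMIs in the Ythdf2 KO library, against 459 and 708 in the WT library. Classical monocytes held 106 and 546 against 76 and 312. With 1 more marker alone the gap remained in macrophages, at 4358 and 11259 UMIs against 6707 and 10067.

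**Figure D5:**
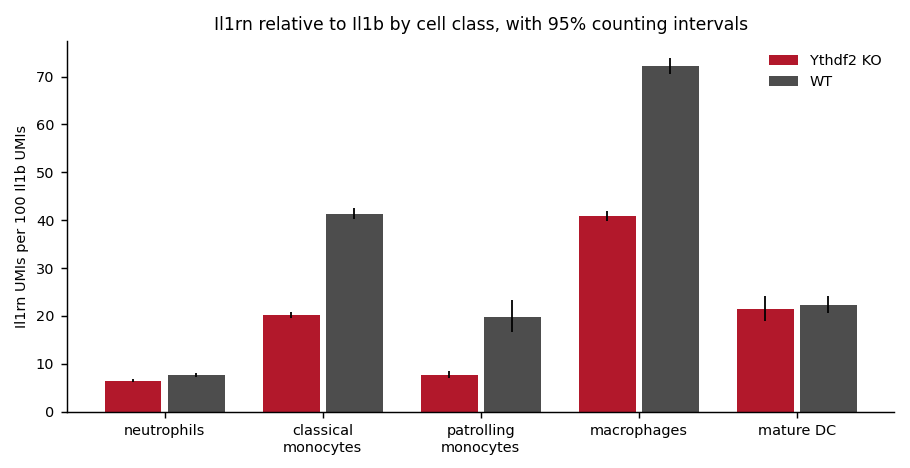
Il1rn UMIs per 100 Il1b UMIs in 4 gated classes and mature dendritic cells, for the Ythdf2 KO library (red, left) and the WT library (grey), with 95% counting intervals. The Ythdf2 KO bar is lower in both monocyte classes and in macrophages, and the bars of mature dendritic cells, 21.4 and 22.3, have overlapping intervals.

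The pair was also read within single cells. In thinned classical monocytes, 32.9% of Ythdf2 KO cells with Il1b also had Il1rn against 24.8% of those without, and in WT cells 34.4% against 35.7%; the rank correlations over cells were 0.09 and 0.003. In macrophages the correlations were 0.08 and 0.07, in neutrophils 0.02 and 0.135, in patrolling monocytes 0.12 and -0.102, and in lymphocytes 0.141 and 0.012. They were highest in dendritic cells, a class of mixed subsets, at 0.226 and 0.146. There 17.65% of Ythdf2 KO cells with Il1b had Il1rn against 4.58% of those without, and in WT cells 22.1% against 11.24%. Cells of 1 library share its depth and free RNA, and a weak correlation in sparse counts is no finding.

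Il1r2, the decoy receptor gene (chr1:40074079-40125231, plus strand), was highest in neutrophils, at 1870 CPM (1807 to 1934) in Ythdf2 KO neutrophils and 1839 CPM (1765 to 1917) in WT ones, a ratio of 1.02 (0.963 to 1.07). Among the main classes, classical monocytes followed at 190 and 184 CPM, with a ratio of 1.03 (0.963 to 1.10). Both intervals included 1, with an upper end no higher than 1.10. The cDC2 dendritic cells held 427 and 505 CPM on 51 and 122 UMIs. T cells held 49.4 CPM (42.4 to 57.1) in the Ythdf2 KO library and 28.3 CPM (23.8 to 33.4) in the WT library, a ratio of 1.74 (1.39 to 2.19), while NK cells stood at 6.43 and 6.51 CPM. Il1r2 was at least 1.5-fold higher in the lymphocyte class as a whole, at 16.0 and 9.98 CPM, although after thinning its ratio there was 1.08.

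Il18bp, the gene of interleukin 18 binding protein (chr7:102014885-102018690, minus strand), was highest in macrophages, at 141 CPM (135 to 148) in the Ythdf2 KO library and 207 CPM (200 to 213) in the WT library, a ratio of 0.685 (0.649 to 0.721) that is short of 1.5-fold. It was detected in 13.8% of thinned Ythdf2 KO macrophages (12.4 to 15.4) and 17.9% of thinned WT ones (16.7 to 19.3), against 0.570% and 0.709% of lymphocytes. In macrophages with at least 2 UMIs of Arg1 it was 96.4 and 179 CPM, a ratio of 0.539 (0.472 to 0.613), and with no Arg1 UMI 157 and 225 CPM, a ratio of 0.698 (0.656 to 0.742). With at least 2 UMIs of Nos2 the ratio was 0.874 (0.69 to 1.10). The macrophage ratio was 0.957 (0.758 to 1.20; 121 and 206 UMIs) with no marker of another lineage. With the stricter gates it was 0.911 (0.64 to 1.28), and without a neutrophil marker 0.780 (0.668 to 0.909). It stayed below 1 under each alternative. Patrolling monocytes held 31.8 CPM (24.5 to 40.6) and 59.4 CPM (38.8 to 87.0) on 64 and 26 UMIs, a ratio of 0.536 past 1.5-fold. With looser gates that ratio was 0.755 (0.549 to 1.05; 119 and 60 UMIs), short of 1.5-fold. Classical monocytes stood at 57.8 and 64.7 CPM, a ratio of 0.894 (0.795 to 1.01). Their ratio was past 1.5-fold among cells with no marker of another lineage, 0.451 (0.192 to 0.985; 10 and 23 UMIs), and among cells without a neutrophil marker, 0.425 (0.217 to 0.793; 15 and 37 UMIs). Il18bp UMIs per 100 Il18 UMIs in macrophages were 188 (175 to 202) in the Ythdf2 KO library and 301 (283 to 319) in the WT library.

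The sensor and executor genes stood closer between the libraries. Nlrp3 (chr11:59541568-59566956, plus strand) was highest in neutrophils, at 767 CPM (727 to 809) in the Ythdf2 KO library and 821 CPM (771 to 873) in the WT library, a ratio of 0.934 (0.861 to 1.01). Classical monocytes, patrolling monocytes and macrophages held 171, 150 and 125 CPM in the Ythdf2 KO library against 174, 144 and 141 CPM in the WT library. The macrophage ratio was 0.890 (0.839 to 0.943) and the other 2 intervals included 1. Nlrp3 and Il1b, both induced through NF-kB, thus stood in opposite order between the libraries in macrophages.

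Casp1 encodes caspase-1 (chr9:5298517-5307265, plus strand). It was 89.3 CPM (84.6 to 94.2) in Ythdf2 KO macrophages and 73.1 CPM (69.5 to 76.9) in WT macrophages, a ratio of 1.22 (1.13 to 1.32). Classical monocytes held 144 and 126 CPM, a ratio of 1.15 (1.06 to 1.24), and patrolling monocytes 113 and 70.8 CPM on 228 and 31 UMIs, a ratio of 1.60 (1.10 to 2.41). That last call turned round with 1 more marker in the gate, where the ratio was 0.817. Neutrophils held 67.1 CPM in both libraries, with a ratio interval of 0.750 to 1.34.

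Casp4, the gene of mouse caspase-11 (chr9:5308828-5336783, plus strand), was highest in neutrophils, at 294 CPM (270 to 320) in Ythdf2 KO cells and 270 CPM (242 to 301) in WT cells, and stood at 125 CPM (120 to 131) in Ythdf2 KO macrophages and 142 CPM (137 to 148) in WT ones, a ratio of 0.882 (0.832 to 0.934). Gsdmd, the gene of gasdermin D (chr15:75862327-75867408, plus strand), stood in macrophages at 64.8 CPM (60.8 to 69.0) in the Ythdf2 KO library and 76.2 CPM (72.5 to 80.1) in the WT library, a ratio of 0.850 (0.784 to 0.922). In classical monocytes Gsdmd held 70.5 and 75.5 CPM and in neutrophils 35.8 and 49.3 CPM, both with overlapping intervals. Both genes were thus on the low side in Ythdf2 KO macrophages by less than 1.5-fold, while Casp1 was on the high side.

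Counted by class, 1 of 10 members was past 1.5-fold in neutrophils (Il18 higher), 1 of 9 that met the level limits in classical monocytes (Il1b higher) and 1 of 9 in macrophages (Il1b higher). In patrolling monocytes 2 of 9 were higher (Il1b, Casp1) and 2 lower (Il1rn, Il18bp), where 11.0% of all genes were higher and 12.0% lower. In neutrophils 9.33% of all genes were at least 1.5-fold higher and 10.9% lower. These shares were 1.85% and 1.94% in classical monocytes and 0.918% and 1.73% in macrophages. The members' median log2 ratio was -0.03 in classical monocytes and -0.17 in macrophages, beside 0.03 and -0.05 over all genes that met the limits.

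In dendritic cells 3 of 9 members were lower (Il18, Il18bp, Nlrp3) and none higher, where 5.14% of all genes were at least 1.5-fold lower and 12.9% higher, and the plasmacytoid share differed between libraries as given above. Il18 over all dendritic cells, 14 and 47 UMIs, was short of 1.5-fold with looser gates, at a ratio of 0.933 (0.604 to 1.42; 37 and 63 UMIs), and stood at 0.594 (0.279 to 1.19) without the highest 8% of Scrublet scores. Within mature dendritic cells Il18bp was 87.7 and 117 CPM, a ratio of 0.750 (0.596 to 0.938), and Nlrp3 4.92 and 15.3 CPM on 6 and 40 UMIs. Over all dendritic cells the Nlrp3 ratio was 0.545 on 27 and 79 UMIs, and 1.14 after thinning to 1000 UMIs a cell. In lymphocytes 2 of 6 were higher (Il1b, Il1r2) and none lower, where 1.25% of all genes were higher and 0.723% lower.

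With median-of-ratios scaling in place of total UMIs the split of all called genes, higher and lower, was 78 and 163 in place of 119 and 125 in classical monocytes, 91 and 98 in place of 67 and 126 in macrophages, 994 and 600 in place of 741 and 810 in patrolling monocytes, and 735 and 593 in place of 948 and 378 in dendritic cells. The median log2 ratio of all genes was 0.07 with that scaling and -0.03 without it in patrolling monocytes, and -0.04 and 0.07 in dendritic cells. Under it the Il1b ratio was 1.62 in classical monocytes, 1.77 in patrolling monocytes and 1.63 in macrophages, and Il1rn in patrolling monocytes, at 0.696, was short of 1.5-fold.

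The wider pathway was read from a list of 67 genes, of which 63 were in the matrices: receptors and other cytokines of the family, signal transducers, sensors and adaptors, cell death executors, guanylate-binding proteins, and genes of induction and feedback. In macrophages none of the 44 that met the level limits was past 1.5-fold in either direction, where 0.918% of all genes were higher and 1.73% lower. The median log2 ratio of the 44 was -0.17, beside -0.05 over all genes. In classical monocytes 1 of 45 was lower, where 1.85% of all genes were higher and 1.94% lower. It was P2rx7, the gene of an ATP-gated channel that triggers the NLRP3 inflammasome, at 11.7 CPM in the Ythdf2 KO library and 24.0 CPM in the WT library (0.487, 0.382 to 0.616). In dendritic cells 2 of 38 were higher and 6 lower, where 12.9% of all genes were higher and 5.14% lower. In lymphocytes 2 of 35 were higher and none lower, where 1.25% and 0.723% of all genes were.

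In neutrophils 5 of 43 pathway genes were higher and 2 lower. Zfp36, which encodes tristetraprolin, a protein that promotes decay of cytokine mRNAs, was 2629 CPM in Ythdf2 KO cells and 1700 CPM in WT cells (1.55, 1.47 to 1.63). Gbp2 and Gbp7, interferon-induced guanylate-binding protein genes, stood at 867 and 555 CPM and at 277 and 183 CPM, ratios of 1.56 and 1.52. Casp8, the gene of the apoptosis initiator caspase-8, was 110 and 68.7 CPM, a ratio of 1.60. All 4 were higher in the Ythdf2 KO library, in a class where 9.33% of genes were higher and 10.9% lower.

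In patrolling monocytes 3 of 47 pathway genes were higher and 4 lower, where 11.0% of all genes were higher and 12.0% lower. Tlr2, a receptor for bacterial lipoproteins, was 90.4 CPM in Ythdf2 KO cells and 150.7 CPM in WT cells (0.600, 0.450 to 0.808). Card9, Irak1, Naip6 and P2rx7, named by the same rule, had intervals that included 1.

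Across 22 values, 11 cell subsets in each of both libraries, the genes whose log2(CPM + 1) ran most like Il1b were Tnfaip2 (Pearson r 0.959), Snx20 (0.945) and Il13ra1 (0.926), out of 8512 compared. Those most like Nlrp3 were Slfn4, Rsad2 and Neat1 (0.949, 0.949 and 0.944), those most like Il18 were Ifi204, Sem1 and Mmp19 (0.959, 0.937 and 0.933), and those most like Il1r2 were Lmnb1, Csrnp1 and Antxr2 (0.927, 0.924 and 0.919). Il1rn ran most like Ftl1, Rhog and Gda (0.930, 0.928 and 0.920). The highest r of the other 5 was 0.868 for Il1a with Lcn2, 0.892 for Il18bp with Plekhm2, 0.908 for Casp1 with Gm9733, 0.916 for Casp4 with Ets2 and 0.931 for Gsdmd with Bmpr2. The values share libraries and cell lineages, so these are descriptions of level across subsets.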

How the data were processed

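Cells came from 1 Ythdf2 KO and 1 WT library made with 10x 5′ chemistry. The deposited values are raw UMI counts per gene and barcode, per the file headers. The build is mm10 per the submitters' processing notes, which list Seurat 4.0.4 and version 5.0.1 of Cell Ranger, whereas the matrix header gives version 6.1.1. Filtering before deposit is not given in the sources used here, and no barcode held fewer than 500 UMIs. The libraries held 134066610 and 168912853 UMIs over 16312 and 20886 barcodes, at a median of 5617 and 5554 UMIs.

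Barcodes with at least 200 genes and at most 10% mitochondrial UMIs were kept (Python 3.11.15, scanpy 1.11.5, scipy 1.17.1) and gated by detected markers. Doublets were limited by the markers of other lineages that a gate allowed, and a Scrublet filter was an alternative. Member UMIs were summed per class and divided by the class total. Levels carry exact Poisson intervals, shares exact binomial (Clopper-Pearson) intervals and ratios conditional exact binomial intervals. UMIs count transcripts at the 5′ end, so levels were not scaled by length and genes were not ranked against each other. The procedure was tested on simulated Poisson counts drawn from the summed WT counts of each class. Those carry counting error alone, so differences between cells, tumours or libraries were not part of that test. Members, lists and gates were chosen with earlier results of these data known. Pathway genes were named, up to 6 per neutrophil, monocyte or macrophage class, by the largest fold past 1.5 with at least 20 CPM in 1 library; likeness genes were the 3 with the highest Pearson r. One gene that the pathway rule names is not reported here. GENCODE M21 places transcripts of other genes over Il1a, Il1b, Il1r2, Il18 and Il18bp, and how reads on them were counted is not given in the sources used here.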

Additional observations from a re-analysis of the deposited data

Results flagged for a closer look

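Il18 stood in opposite order in different cell classes. Its Ythdf2 KO over WT ratio was 2.668 in neutrophils, with 60.4 CPM in Ythdf2 KO cells and 22.6 CPM in WT cells, and 0.4749 in dendritic cells, with 6.29 CPM (14 UMIs) in Ythdf2 KO cells and 13.3 CPM (47 UMIs) in WT cells. With looser gates the ratio in dendritic cells was 0.933 (0.604 to 1.42; 37 and 63 UMIs), short of 1.5-fold, and without the highest 8% of Scrublet scores it was 0.594 (0.279 to 1.19). The difference between the classes was not tested, since each genotype is 1 library. Plasmacytoid dendritic cells were 128 of 410 dendritic cells in the Ythdf2 KO library and 68 of 627 in the WT library, and their part in the second ratio was not tested. Within mature dendritic cells Il18 had 4 UMIs in the Ythdf2 KO library and 25 in the WT library, under the level limits.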

How the results depend on the processing

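No paired analysis was possible because each genotype is 1 library and no result comes from a test. The 52 ratios examined, recomputed under the alternatives, gave 612 values, of which 441 stayed within the counting interval of the value reported, 163 moved outside it and 8, all of ratios past 1.5-fold, turned round. All ratios named here are Ythdf2 KO over WT. Ratios short of 1.5-fold that crossed 1 are not among the 8; Il1rn did so at 1.45 in classical monocytes (no marker of another lineage) and at 0.554 (stricter gates) and 0.605 (no marker of another lineage) in neutrophils. The 8 were Casp1 in patrolling monocytes at 0 (stricter gates, 5 and 1 cells), 0.817 (1 more marker), 0.735 (no marker of another lineage) and 0.908 (no neutrophil marker); Il1b in macrophages at 0.905 (stricter gates); Nlrp3 in dendritic cells at 1.14 (thinned to 1000 UMIs) and 1.04 (no marker of another lineage); and Il1b in lymphocytes at 0.890 (no marker of another lineage).

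The number of members past 1.5-fold also moved. With 1 more marker it was 2 in neutrophils, where 625 of the 5113 genes that met the limits were higher and 477 lower. With no marker of another lineage the number of members was 4 in neutrophils and 4 in classical monocytes. It was 2 in patrolling monocytes, 2 in macrophages and 1 in lymphocytes. Genes past the fold there, higher and lower, were 288 and 212 of 1741 in neutrophils and 390 and 472 of 3215 in classical monocytes. They were 188 and 159 of 952 in patrolling monocytes, 427 and 1054 of 7115 in macrophages and 382 and 527 of 7294 in lymphocytes. With stricter gates the number of members was 2 in classical monocytes, 0 in patrolling monocytes, 3 in macrophages and 1 in lymphocytes. Genes past the fold were 195 and 179 of 1345 in classical monocytes and 117 and 35 of 206 in patrolling monocytes. In macrophages they were 497 and 855 of 5263, and in lymphocytes 654 and 742 of 7311. With looser gates 2 members were past the fold in patrolling monocytes, where 378 of 6781 genes were higher and 470 lower. In cells without a neutrophil marker the number of members was 3 in classical monocytes, 2 in patrolling monocytes, 7 in dendritic cells and 1 in lymphocytes. Genes past the fold were 585 and 667 of 4973 in classical monocytes and 327 and 266 of 1618 in patrolling monocytes. In dendritic cells they were 1066 and 917 of 5365, and in lymphocytes 139 and 112 of 7058. In lymphocytes 1 member was past the fold with means over cells, with thinning and without the highest 8% of Scrublet scores. Genes past the fold there were 182 and 88 of 7315, 349 and 352 of 7378, and 84 and 52 of 7050. The cause was not tested. The gates with a single change, the subtraction of the lymphocyte level, the patrolling gate without Ace and the split by neutrophil markers were chosen after seeing the data. Leaving out the barcodes found in both libraries changed none of the member counts by over 1.5 times. Counts of under 100 UMIs, as for Il1a, Il18 in neutrophils of the WT library and most members in the 69 WT patrolling monocytes, limit the precision of those ratios.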
